A study of Xenopus laevis with 4 samples.

Results

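The clones described here are the cDNA spots whose ratio was raised when BMP signalling was blocked in Xenopus laevis animal caps. A clone was taken as a member when its log2 ratio of blocked over control caps, after subtraction of the median of its own plate, stood at or above 1 (2-fold) on both arrays of its set. Of 29791 clones that could be judged, 91 met this limit (0.305%), 30 of 11807 in set 1 (0.254%) and 61 of 17984 in set 2 (0.339%). The members were chosen on these ratios, so the ratios are given as a description and no test of them is read as evidence. The deposited values tie no clone to a gene. Of 30034 probe IDs, control-named ones included, 0 matched an entry of the NCBI gene table for Xenopus laevis. Clone IDs are codes of plate and well that could hardly match, so this says nothing on which genes the clones hold. The label of the group therefore rests on the ratios alone, and no marker gene could be checked in it. Single clones are given by their ID or by plate and well, with no gene name or role.

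Bone morphogenetic proteins (BMPs) are secreted ligands that bind paired type I and type II receptor kinases, which phosphorylate Smad proteins that turn on target genes in the nucleus. In the ectoderm of the frog embryo BMP signalling directs cells to epidermis, and antagonists from the organizer, such as chordin, noggin and follistatin, hold the ligands away from the receptors so that the dorsal ectoderm becomes neural plate. The animal cap is the ectodermal roof of the blastula. Cut out and left alone it forms epidermis, and with the BMP receptor blocked it turns to neural tissue, where early neural regulators of the Sox and Zic families are known to be switched on.

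Each of the 4 arrays compared 2 RNAs. One came from caps of embryos injected at the 2-cell stage with 4 ng of mRNA for a dominant negative BMP receptor I (DNBR), the other from caps of uninjected embryos. Caps were cut at stage 8 to 8.5 and grown to stage 10.5, the early gastrula. Control embryos were not injected with another mRNA, so the block and the injection itself cannot be told apart, and the DNBR caps also contained the injected mRNA. The strain, the number of caps pooled and whether paired arrays were made from different lots of embryos are not given in the labels, so the spread between arrays may be technical. DNBR RNA carried Cy5 and control RNA Cy3, and the labels name no dye swap. A dye effect that repeats would stay in every ratio. That higher values mean higher in DNBR caps is likely from the order of the channels but not stated in the value tables, and every direction below would turn if it were otherwise. The sets hold different clones, each on 55 numbered plates, with 92 to 302 clones per plate in set 1 and 270 to 371 in set 2. Clones on the plate XL0c2 (132 clones) and the 111 control-named probes were left out of the choice. After plate centring, Pearson's r between arrays was 0.46 in set 1 and 0.83 in set 2 across clones (Spearman's rho 0.41 and 0.78), where clones of 1 plate are not independent.

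In set 1 the 30 raised clones lay between 1.03 and 2.37 on array 1 (median 1.33) and between 1.095 and 2.58 on array 2 (median 1.74). Their mean over both arrays ran from 2.15-fold to 5.56-fold, with a median of 2.96-fold. By that mean 17 were under 3-fold, 7 between 3- and 4-fold and 6 above 4-fold. In set 2 the 61 raised clones lay between 1.01 and 4.20 on array 1 (median 1.61) and between 1.01 and 4.09 on array 2 (median 1.62). Their mean ran from 2.04-fold to 17.2-fold, with a median of 3.06-fold. Here 29 were under 3-fold, 24 between 3- and 4-fold, 5 between 4- and 8-fold and 3 above 8-fold. The medians of the 2 sets, both cut at the same limit, thus lay close together, while the highest members of set 2 reached further.

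**Figure D1:**
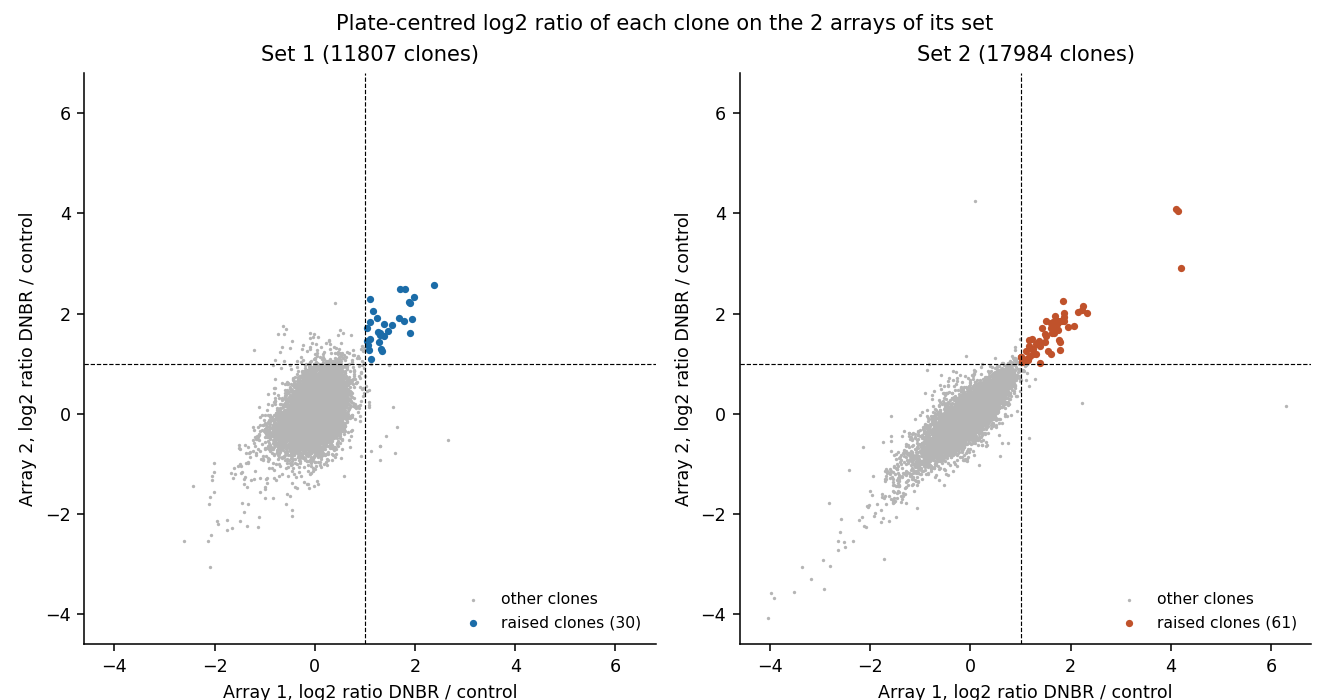
Plate-centred log2 ratio of every clone on array 1 (x axis) and array 2 (y axis) of its set, with the limit of 1 as dashed lines and the raised clones in colour. In set 2 the clones lie close to the diagonal and 3 raised clones stand apart from the other 58, while in set 1 the cloud is wide and more clones pass the limit on array 2 alone (129) than on array 1 alone (18).

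The highest clone of set 1 was XL007b09, with log2 ratios of 2.37 on array 1 and 2.58 on array 2, a mean of 2.48 ± 0.15 (SD, n = 2) or 5.56-fold. No other member of set 1 was raised 4-fold or more on each array (1 of 11807 clones, 0.00847%). The next was XL052i14, at 1.97 and 2.32, a mean of 2.15 ± 0.25 (SD, n = 2) or 4.43-fold. Close behind it came 4 further clones with means of 4.14- to 4.41-fold, on plates 6, 27, 34 and 44. The clone on plate 27 in well l24 stood at 1.80 and 2.48, and the clone on plate 34 in well b16 at 1.71 and 2.48. Those on plate 6 in well c04 and on plate 44 in well a07 stood at 1.88 and 2.23, and at 1.89 and 2.21. The differences among these 5 clones were smaller than the spread between their own arrays, so they have no order.

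In set 2, 7 clones were raised 4-fold or more on each array (0.0389% of the set), and 2 of them 8-fold or more. XL056i07 stood at 4.11 and 4.09, a mean of 4.10 ± 0.014 (SD, n = 2) or 17.2-fold. XL076p16 stood at 4.14 and 4.05, a mean of 4.09 ± 0.063 (SD, n = 2). These 2 clones had the highest means on the numbered plates and cannot be ranked against each other. Before centring, the deposited ratios were 13.5 and 13.9 for XL056i07, and 16.8 and 15.7 for XL076p16. The third clone, on plate 65 in well g01, stood at 4.20 on array 1 and 2.90 on array 2, the widest gap between arrays among all 91 members (-1.30). Its deposited ratios, before centring, were 13.7 and 5.96. Below these 3 came a gap, and the other 58 members followed without a break from 2.20 ± 0.061 (SD, n = 2) down to the limit. That next clone lay on plate 63 in well p10, at 2.24 and 2.16. The remaining 3 of the 7 were on plate 99 in well i04 (2.33 and 2.02), plate 81 in well c07 (2.23 and 2.08) and plate 63 in well o15 (2.15 and 2.03).

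**Figure D2:**
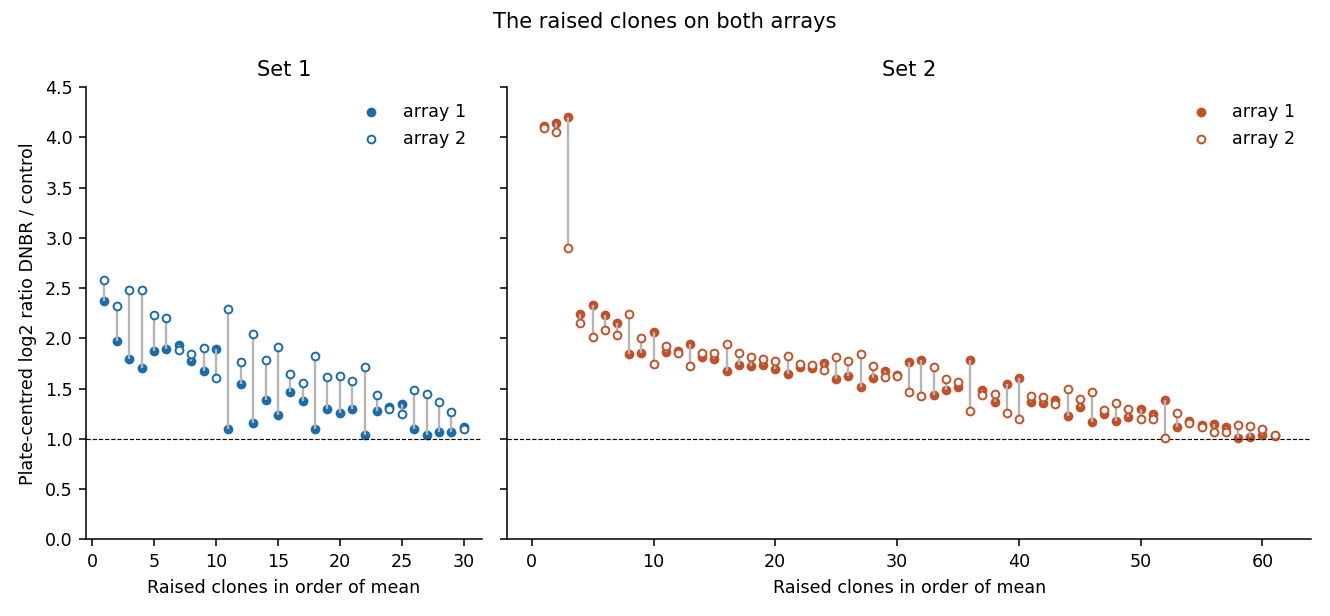
Plate-centred log2 ratio (y axis) of the 30 raised clones of set 1 and the 61 of set 2, in order of their mean (x axis), with filled points for array 1, open points for array 2, a grey line between them and the limit of 1 dashed. In set 1 the open point is above the filled one for 25 of 30 clones, while in set 2 the points lie within 0.2 of each other for 44 of 61 clones and are furthest apart for the third clone.

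The 2 arrays of a raised clone lay closer together in set 2 than in set 1, and so did those of all clones. Over all clones the SD of the difference between arrays was 0.22 in set 2 and 0.40 in set 1. Over the members it was 0.25 and 0.32. Members were chosen as high on both arrays, so their own agreement is partly fixed by the choice. The 2 arrays lay within 0.2 of each other on the log2 scale for 44 of 61 members of set 2 and for 9 of 30 of set 1, and within 0.5 for 59 and 23. The SD of a member over its arrays had a median of 0.063 in set 2 and 0.22 in set 1. In set 1 the members ran higher on array 2, by a median of 0.31, and 25 of 30 were higher there. Over all clones of set 1 the same difference had a median of 0.045, with 54.8% of clones higher on array 2, and the SD of all ratios was 0.42 on array 2 against 0.35 on array 1. The widest gap in set 1 belonged to the clone on plate 32 in well a12, at 1.10 and 2.29. In set 2 the median difference of the members was 0.037 and 34 of 61 were higher on array 2.

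The limit of 2-fold cut through a continuous range. In set 1 the 3 members nearest to it stood at 1.07 and 1.37, at 1.04 and 1.71, and at 1.03 and 1.44, and the 3 clones just outside stood at 1.12 and 0.999, at 0.99 and 1.01, and at 0.99 and 1.31. In set 2 the nearest members stood at 1.02 and 1.12, at 1.01 and 1.14, and at 1.39 and 1.01, and the nearest clones outside at 0.99 and 1.04, at 0.99 and 1.49, and at 1.13 and 0.99. Within 0.1 of the limit on the lower array lay 8 members and 10 other clones in set 1, and 7 members and 15 others in set 2. Some of these clones repeated closely between arrays. Over all clones, however, the SD of the difference between arrays was 0.40 in set 1 and 0.22 in set 2. That is wider than 0.1, so membership near the limit is not settled by 2 arrays.

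In limma fits over all clones of a set, 275 clones of set 1 (2.33%) and 3020 of set 2 (16.8%) were called higher at an adjusted p under 0.05. Slightly more, 282 and 3201, were called lower, a near balance that centring on plate medians partly sets. With values as deposited, 75 were called higher and 231 lower in set 1, and 1345 and 3449 in set 2. In set 1 the order turned at a threshold of 0.1 (492 higher, 441 lower) and with adjustment over both sets (573 and 499). The spread behind these calls is that between 2 arrays, which may be technical. All 30 and all 61 members were among the clones called higher, which the choice of members all but fixes. The members' adjusted p from limma ran from 2.81e-14 to 4.47e-05 for set 1 and from 4.14e-06 to 8.52e-04 for set 2. These values come from the ratios that chose the members, so they add no evidence for them. Each set was fitted alone, so they do not show that one set is more certain than the other.

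The arrays of a set can also be read one at a time, as a description, since the clones past the limit on both are the members themselves. Of the 48 clones of set 1 at 2-fold or more on array 1, 30 were so on array 2 as well. That is 62.5%, against 1.35% of all clones of the set. Their median went from 1.31 on array 1 to 1.44 on array 2, and 40 of 48 were above 0 there. Centring puts each plate's median at 0, so about as many of all clones lie above 0 as below it. In the other direction 159 clones passed on array 2, and the same 30 of them passed on array 1. That is 18.9%, against 0.407% of all clones. The median of those 159 fell from 1.21 on array 2 to 0.41 on array 1, with 128 above 0. Most clones chosen on array 2 of set 1 were thus above 0 on array 1 but under the limit.

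In set 2, 75 clones passed on array 1 and 61 of them on array 2 (81.3%, against 0.489% of all clones), with medians of 1.51 and 1.44. Of the 88 that passed on array 2, 69.3% passed on array 1 (against 0.417% of all clones), with medians of 1.38 and 1.33. Above 0 on the array not used were 74 of 75 and 86 of 88, where centring again puts about as many of all clones above 0 as below it.

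**Figure D3:**
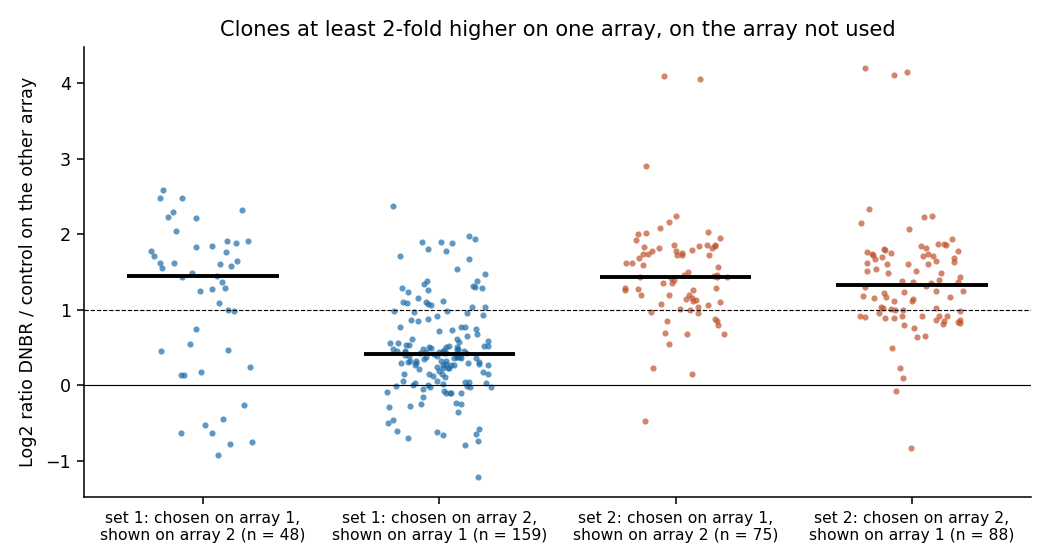
Log2 ratio on the array not used for the choice (y axis) of the clones that passed the limit on the named array, one point per clone, with the median as a black bar, 0 as a solid line and the limit of 1 dashed. The medians are 1.44, 0.41, 1.44 and 1.33 from left to right, and only the second lies under the limit.

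A few clones were strongly higher on 1 array and near or below 0 on the other, and the rule kept them out. On plate 62 the clone in well e22 stood at 6.29 on array 1, above every member, and at 0.15 on array 2. On plate 85 the clone in well l18 stood at 0.093 on array 1 and 4.25 on array 2. In set 1 the clone on plate 7 in well k07 stood at 2.65 and -0.53. The first 2 of these clones, both in set 2, show that a large ratio on a single array could fail to repeat even in the set whose arrays correlated well. Only 1 clone of set 1 and none (0) of set 2 were 2-fold in opposite directions on the 2 arrays.

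The raised clones were spread over 56 of the 110 plates. In set 1, 20 of 55 plates held a member and 35 held none. Plate 7 held 4 and plate 23 held 3, while 5 plates held 2 and 13 held 1. In set 2, 36 of 55 plates held a member. Plates 63 and 65 held 5 each, plates 60, 92 and 99 held 4 each, plates 61 and 93 held 3 each, 4 plates held 2 and 25 held 1. The highest clone of a plate by mean was a member on 20 plates of set 1 and 35 of set 2, and every member ranked among the 5 highest of its plate.

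On plate 7 the 4 members among 231 clones were XL007b09, the clone in well a05 at 1.68 and 1.91, the clone in well o22 at 1.09 and 1.83, and the clone in well d04 at 1.10 and 1.49. The 5 members of plate 63 lay at 2.24 and 2.16 (well p10), 2.15 and 2.03 (o15), 1.94 and 1.73 (p13), 1.80 and 1.85 (a03) and 1.25 and 1.29 (i10). On plate 63 the 3 highest thus sat in the last 2 rows of the plate, although none of them touched another. Apart from well g01, the members of plate 65 were lower, at 1.60 and 1.19 (h02), 1.23 and 1.499 (p11), 1.22 and 1.29 (e10) and 1.39 and 1.01 (g15). The 4 members of plate 60 had means between 1.61 and 1.93, those of plate 92 between 1.22 and 1.81 and those of plate 99 between 1.37 and 2.17.

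Plates 56 to 65, singled out for their values, held 22 of the 61 members of set 2 (36.1%) and 16.9% of its clones. That is 0.724% of their clones, against 0.261% on plates 66 to 110, where 39 clones were members. The members' means had a median of 1.63 on plates 56 to 65 and 1.61 on the others. Both groups were cut at the same limit, so these medians cannot show whether their heights differ. Above 8-fold by the mean were 2 of the 22 members on plates 56 to 65 and 1 of the 39 on the others. The ratios of all clones were spread more widely on most of plates 56 to 65, but not on plate 64 (SDs of 0.37 and 0.34). Plate 64 held no member (0), and neither did plate 59 (0 of 270 clones), whose spread was the widest (SDs of 0.63 and 0.56). In all, 19 of the 55 plates of set 2 held none. On plates 56 to 65 the SD within a plate was typically 0.53 on array 1 and 0.49 on array 2 (median over plates). On plates 66 to 110 it was 0.32 and 0.33. A limit of 1 was thus about 1.88 and 2.05 plate SDs on the former and 3.09 and 3.01 on the latter. At least 3 plate SDs above 0 on both arrays were 12 of the 22 members on plates 56 to 65 and 36 of the 39 on plates 66 to 110. Plates 56 to 65 also had lower plate medians, typically -0.38 and -0.32 as deposited, against -0.038 and -0.019, and plate centring lifts their clones by that much. With each array centred on its overall median instead, 8 members of set 2 fell under the limit, 7 of them on plates 56 to 65, where 15 of 59 raised clones (25.4%) then lay.

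**Figure D4:**
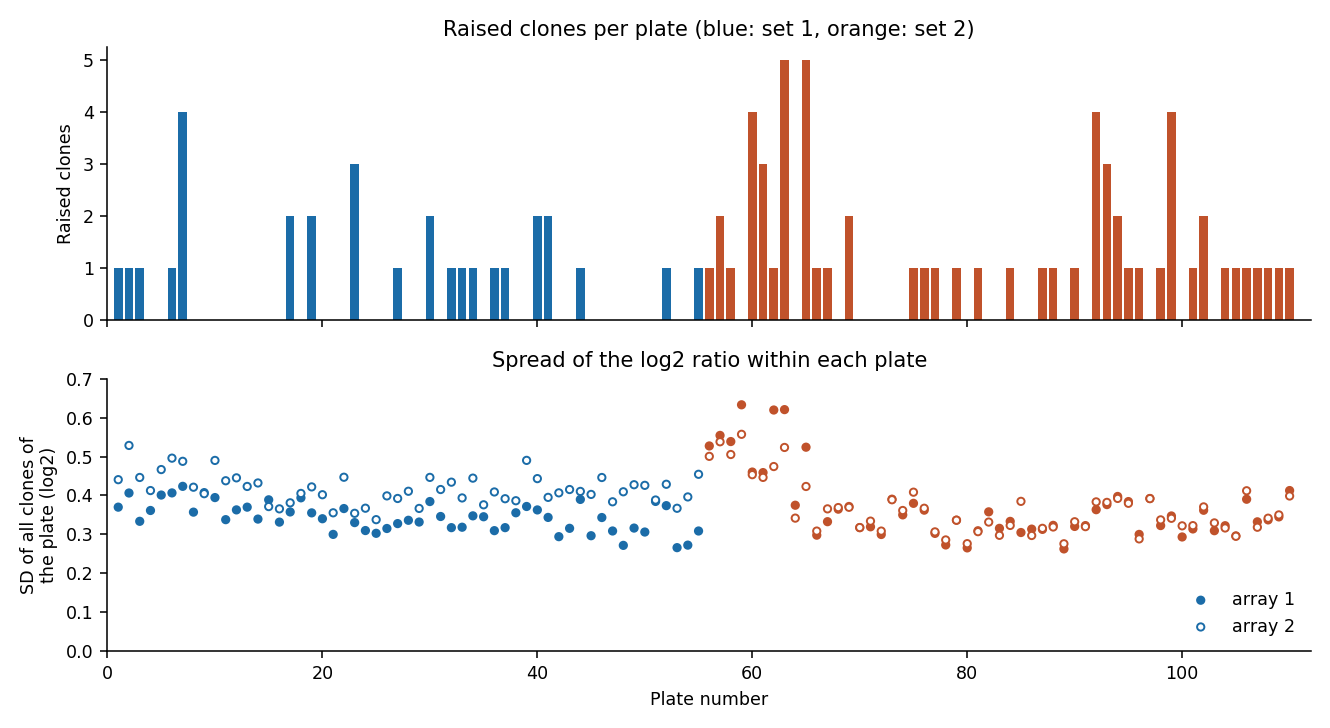
Number of raised clones on each plate (upper panel) and SD of the log2 ratio of all clones of the plate (lower panel, filled for array 1, open for array 2), by plate number on the x axis, blue for set 1 and orange for set 2. Plates 56 to 65 hold 22 raised clones, and except for plate 64 their clones are widely spread. The plate SDs reach 0.63 on array 1, on plate 59, which is 1 of the 19 plates of set 2 without a raised clone.

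Raised clones of set 1 were most frequent in rows a and i. These rows together held 11 of the 30 (36.7%) and 16.2% of the clones, so 0.574% of their clones were members. In the other 7 pairs of rows the share was between 0.0683% and 0.293%, with 0.212% in rows b and j and the 0.293% in rows h and p, so it did not fall steadily over the rows. The ratio of all clones was also highest in rows a and i: its median in rows a and i was 0.23 on array 1 and 0.20 on array 2, and in rows h and p -0.22 and -0.20. The values were also centred within positions and then plates. Positions here are the 8 row classes (such as a and i) crossed with 4 column classes (such as 2, 6 and so on), so each pools many wells. After that, 24 of the 30 members stayed above the limit, and rows a and i held 7 of the 27 clones that then passed (25.9%). In set 2 the row medians ranged over 0.12 to -0.077 (array 1) and 0.21 to -0.12 (array 2), and rows a and i held 10 of 61 members (16.4%) and 12.0% of the clones. Of the 61, 58 stayed above the limit after centring within positions. Rows a and i then held 8 of the 66 clones that passed (12.1%), and rows h and p held the most, 13. Over columns, 13 of 30 members of set 1 (43.3%) lay in columns 2, 6 and so on, which held 26.2% of its clones. The fullest column class of set 2 was columns 1, 5 and so on, with 20 of 61 members (32.8%) and 24.8% of the clones.

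**Figure D5:**
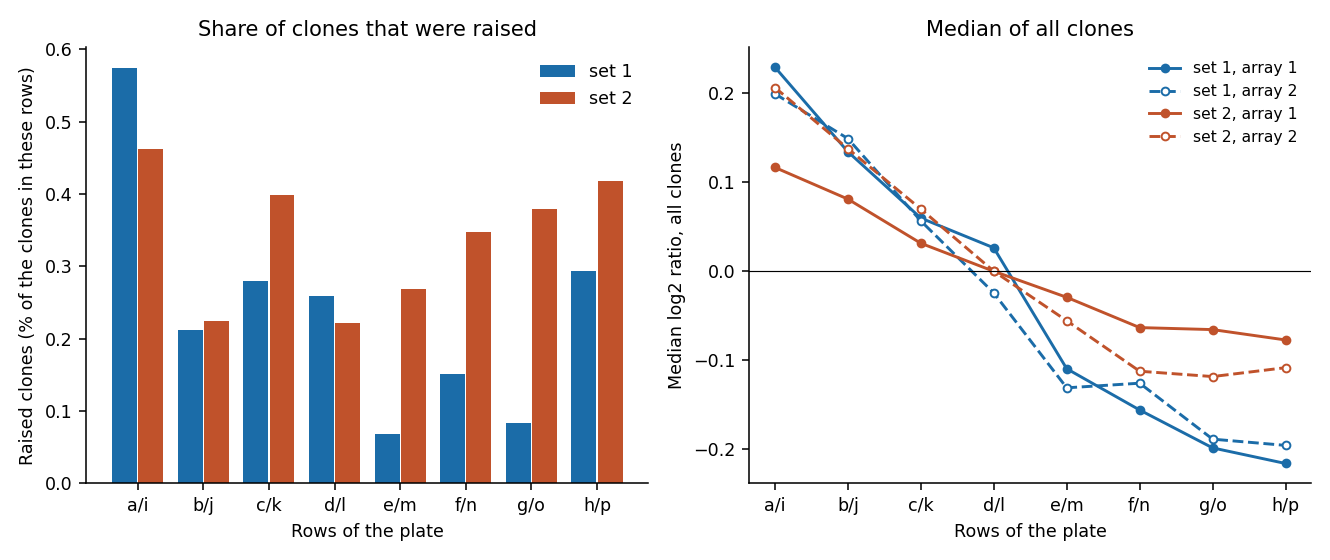
Share of the clones in each pair of plate rows that were raised (left, bars from 0, in percent) and median log2 ratio of all clones in these rows (right), for both sets. The medians are highest in rows a and i and below 0 from rows e and m onward on all 4 arrays. The share of raised clones is highest in rows a and i, at 0.574% in set 1 and 0.461% in set 2. In set 2 rows h and p follow closely, at 0.418%.

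Wells next to a raised clone had medians near 0. Members of set 1 had 76 filled wells directly beside, above or below them, with medians of 0.13 on array 1 and 0.088 on array 2, and those of set 2 had 191, with medians of 0 and 0.027. Of these wells, 2 of the 76 in set 1 and 0 of the 191 in set 2 held members, against 0.254% and 0.339% of all clones. The 2 were 1 touching pair on plate 41. The clone in well j18 stood at 1.94 and 1.88, and that in well i18 at 1.07 and 1.37. After the same centring within positions and then plates, the clone in i18 stood at 0.78 and 1.18, under the limit on array 1. Across plates the 91 members filled 78 different wells, 13 of which held a member on 2 plates and none (0) on 3 or more. How many wells any 91 clones would share was not worked out, so these counts are only a description. Over all clones in each of these 13 wells, the median of the mean ratio ran from -0.16 (well f24) to 0.23 (well a05).

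By the same rule turned downward, 200 of 29791 clones stood at or below -1 on each array. They were 40 of 11807 in set 1 and 160 of 17984 in set 2, so raised clones were the smaller group in both (30 and 61). In set 2 the ratios of all clones also reached further down than up. Their 1st percentiles were -1.17 and -1.06 on arrays 1 and 2, and their 99th 0.80 and 0.82. In set 1 the same percentiles were -0.94 and -0.94, and 0.71 and 1.06.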

How the data were processed

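Per the labels' protocols, total RNA was labelled with Cy3 and Cy5, hybridised to spotted arrays and read with a GenePix scanner, and GenePix Pro, Cyber-T and GeneData Expressionist were used for the analysis. Each deposited value is the natural log of the ratio between channels, without channel signals, flags or errors. The base was read from the values: all ratios of 1 or more were whole hundredths, within 0.002 of one (100% on all 4 arrays). For normalisation and spot filters the sources used here give nothing, so no filter on dim spots was possible, and the number of arrays limits the precision.

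Values were divided by the natural log of 2, IDs starting with Contr and plate XL0c2 were dropped, and each plate's median was subtracted on each array. The plate is the ID without its well. Clones at or above 1 on both arrays are the members. No value was missing (0) and no column belonged to another series (0). Each set was fitted alone with limma 3.58.1 in R 4.3.3 (mean of 2 arrays against 0, two-sided, Benjamini-Hochberg over the set, 0.05), tested on simulated data with 200 changed clones. There it found 26% of 1.5-fold and 86% of 2-fold changes in set 1, and 96.5% and 100% in set 2. The simulated noise was normal with 1 SD per set and no plate or row offsets, so these shares need not hold for the real arrays. In the real data, identical values on both arrays gave some clones a variance of 0, which limma offset. Named clones are the 2 highest of each set by mean, others are given by plate and well. The members, lists and alternatives were chosen with earlier results of these data known. Alternatives covered centring, scaling, limits, plates, test and single arrays.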

Additional observations from a re-analysis of the deposited data

Results flagged for a closer look

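Plate XL0c2 of set 2 was left out of the choice of members, and its ID departs from the numbered plates. It held 18 clones at least 2-fold higher on both arrays after centring on its own median. That is 13.6% of its 132 clones, against 0.339% of clones on the numbered plates of set 2. The highest values on XL0c2 were 7.97 on array 1 and 7.54 on array 2, above every raised clone of the numbered plates. The control-named probes of set 1, treated in the same way, held none (0 of 111). With a share of 0.254% over all clones of set 1, 111 probes are too few to show a difference.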

How the results depend on the processing

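Each log ratio already compares both RNAs of a pair on the same array, so the limma fits of these ratios are paired. For replicate numbers across the sets, no paired analysis was possible because no clone is on both sets. The count of raised clones over both sets lay between 78 (values as deposited) and 109 (plate XL0c2 kept) under other centring and scaling and with the dropped probes kept, against 91. Of the 91, 83 stayed with array medians only, 76 with values as deposited, 82 after centring within positions and 73 with a limit of 3 plate SDs, which gave 79 clones. Without plates 56 to 65 set 2 held 39. At 1.5-fold the counts were 104 and 401 (505 in all), at 3-fold 10 and 29 (39), and at 4-fold 1 and 7 (8). On 1 array alone 48 to 159 clones passed in set 1, 75 to 88 in set 2 and 123 to 247 in all. With the sign turned, 40 clones passed in set 1, 160 in set 2 and 200 in all. The 275 limma calls of set 1 became 154 with array medians only, 75 as deposited, 34 with a regularised t after Cyber-T, 56 tested against 1.2-fold, 102 at a threshold of 0.01, 492 at 0.1 and 573 adjusted over both sets. The 3020 of set 2 became 1345 as deposited, 1919 with the regularised t, 605 against 1.2-fold and 1285 at 0.01. They became 3319 with array medians only, 3926 at 0.1 and 2645 adjusted over both sets. The share repeated on the other array in set 1 was 43.0% at 1.5-fold and 76.9% at 3-fold for clones chosen on array 1. For those chosen on array 2 it was 9.66%, 35.7% and, as deposited, 37.7%. In set 2 it was 65.5% at 1.5-fold for array 1, and 87.9% at 3-fold and 81.5% after centring within positions for array 2. Over all clones the shares past these limits on the other array lay between 0.110% and 9.12%. The 4 clones named by ID lay between 1.94 and 4.16 in 32 other values, a range that pools clones of unlike height. All stayed above the limit, which their choice all but fixes. XL056i07, at 4.10, stood at 3.77 as deposited and 3.86 with array medians only. After centring within positions XL052i14, at 2.15, stood at 1.94, and XL076p16, at 4.09, stood at 4.16. For all these shifts the cause was not tested, apart from the change each setting makes by construction. Limma on 1 array was not run, since it leaves no spread to test against. The limit in plate SDs, both position shares and some settings of the named clones were chosen after seeing the data.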
